A study of Mus musculus and Homo sapiens with 8 samples.

Results

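The alcohol, aldehyde and retinol dehydrogenase genes of small-intestinal crypts were taken from an RNA-seq table as every gene whose symbol starts with Adh, Aldh, Rdh or Dhrs followed by a digit, or with Akr1 or Akr7, without Aldh18a1. This gave 47 of the 13359 distinct genes in the table, namely 4 Adh, 15 Aldh, 9 Rdh, 8 Dhrs and 11 Akr genes. The first group was crypt RNA of 2-month-old, untreated C57BL/6 mice that carry the Apc Min allele and are labelled Zmynd8IEC-/-, a deletion of Zmynd8 in intestinal epithelial cells. The other group was crypt RNA of C57BL/6 mice of the same age, untreated, with the Apc Min allele alone, which truncates the Wnt pathway regulator Apc. There were 2 libraries in each group, each a mixture of RNA from 3 mice. The labels do not name the Cre driver or the exons removed, and do not say whether the mice of the pools were littermates, so p-values measure only the spread between these pools, which may be partly technical. The comparison asked how loss of the chromatin reader ZMYND8 from the epithelium changed the expression of these oxidoreductases in crypts that all carry the Apc Min mutation.

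Alcohols, aldehydes and ketones from food, microbes and lipid breakdown are interconverted in gut epithelium by these enzyme families. Medium-chain alcohol dehydrogenases (Adh) and many short-chain dehydrogenases (Rdh, Dhrs) oxidise alcohols to aldehydes or run the reverse reaction, aldehyde dehydrogenases (Aldh) oxidise the aldehydes to acids, and aldo-keto reductases (Akr) reduce aldehydes and ketones back to alcohols. Vitamin A takes this route. Retinol is oxidised to retinaldehyde by Rdh and Adh enzymes and then to retinoic acid by enzymes of the Aldh1a group. Retinaldehyde reductases run the first step backwards.

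Values are FPKM, reads scaled by gene length and library total, so levels can be compared between genes. Reads recovered from these values came to 45304190 and 46779804 on the listed genes in the libraries labelled Zmynd8IEC-/-, and to 43457253 and 47500049 in the Apc Min libraries. Zmynd8 itself stood at 7.30 and 7.65 FPKM in the libraries labelled Zmynd8IEC-/-, against 6.94 and 4.73 FPKM in the Apc Min libraries. The targeted gene was therefore not lower in the libraries labelled as lacking it (log2 fold change 0.33, 95% interval -0.13 to 0.79, limma adjusted p = 0.293), and every direction here rests on the labels. Crypt markers were abundant in both groups, with the stem cell marker Olfm4 at 98.3 and 109 FPKM in the libraries labelled Zmynd8IEC-/-, against 133 and 166 FPKM in the Apc Min libraries, and the Paneth cell marker Lyz1 at 1581 and 2046 FPKM, against 1906 and 2917 FPKM. Over the 12948 genes tested the log2 fold changes had a median of -0.15, which dividing each library by its median ratio to the others moved to -0.01.

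The highest ratios of means, 4.85 to 28.0, libraries labelled Zmynd8IEC-/- over Apc Min libraries, were those of 3 neighbouring alcohol dehydrogenase genes and 1 retinol dehydrogenase gene. In the other direction the lowest was 0.173 for Dhrs9, which 1 library carried. The Adh genes together summed to 276 and 425 FPKM in the libraries labelled Zmynd8IEC-/-, against 92.1 and 79.2 FPKM in the Apc Min libraries. The 9 Rdh genes summed to 192 and 221 FPKM in the libraries labelled Zmynd8IEC-/-, against 119 and 109 FPKM in the Apc Min libraries. Rdh7 alone carried this difference, at 86.7 and 114 FPKM, against 11.7 and 5.07 FPKM. More enterocytes, or more proximal tissue, in these pools and more RNA of these genes per cell cannot be told apart. The other families differed far less. The 11 Akr genes, for example, summed to 634 and 625 FPKM in the libraries labelled Zmynd8IEC-/-, against 571 and 604 FPKM in the Apc Min libraries.

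Adh4, the class II alcohol dehydrogenase gene, stood at 9.07 and 13.3 FPKM in the libraries labelled Zmynd8IEC-/- (554 and 838 reads), against 0.597 and 0.203 FPKM in the Apc Min libraries (35 and 13 reads). It was close to absent in the Apc Min crypts and plainly present in both other libraries. Adh4 rose by the limma test over all genes (log2 fold change 3.11 on the log2(FPKM + 1) scale, SE 0.24, adjusted p = 0.0412), and it was the only one of 46 members tested that did, or 2.17%, against 0.726% of all genes in either direction and 0.595% higher. The call lay at the threshold, with adjusted p between 0.0297 and 0.152 over the other settings and 0.055 with a smaller pseudocount of 0.1. Without either library labelled Zmynd8IEC-/-, Adh4 no longer reached 1 FPKM in 2 libraries and was not tested.

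Adh1, the class I enzyme that oxidises ethanol and retinol, stood at 71.7 and 101 FPKM in the libraries labelled Zmynd8IEC-/-, against 17.6 and 9.53 FPKM in the Apc Min libraries. The lower of the first pair was 4.08 times the higher of the second, yet both groups spread widely, and limma gave a log2 fold change of 2.62 (SE 0.35, adjusted p = 0.0770). Without Apc Min replicate 2 it was 2.21 with adjusted p = 0.0414, without Apc Min replicate 1 3.03 with 0.0518, and without replicate 1 or 2 labelled Zmynd8IEC-/- 2.87 with 0.245 and 2.38 with 0.501. Adh6a, a class V gene, stood at 173 and 283 FPKM in the libraries labelled Zmynd8IEC-/-, against 49.8 and 44.3 FPKM in the Apc Min libraries. It was the most abundant Adh gene in all 4 libraries, and its log2 fold change was 2.21 (SE 0.26, adjusted p = 0.0609). By contrast Adh5, the class III enzyme that clears formaldehyde and S-nitrosoglutathione in all tissues, stood at 22.9 and 26.8 FPKM in the libraries labelled Zmynd8IEC-/-, against 24.1 and 25.2 FPKM in the Apc Min libraries. The groups overlapped, and the 95% interval of its log2 fold change ran from -0.28 to 0.29. Adh5 made up 8.28% and 6.30% of the summed Adh FPKM in the libraries labelled Zmynd8IEC-/-, against 26.2% and 31.8% in the Apc Min libraries. Adh6b and Adh7, which lie in the same cluster, are not listed under these symbols among the 13359 genes, and reads of Adh6a could be shared with such close relatives.

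**Figure D1:**
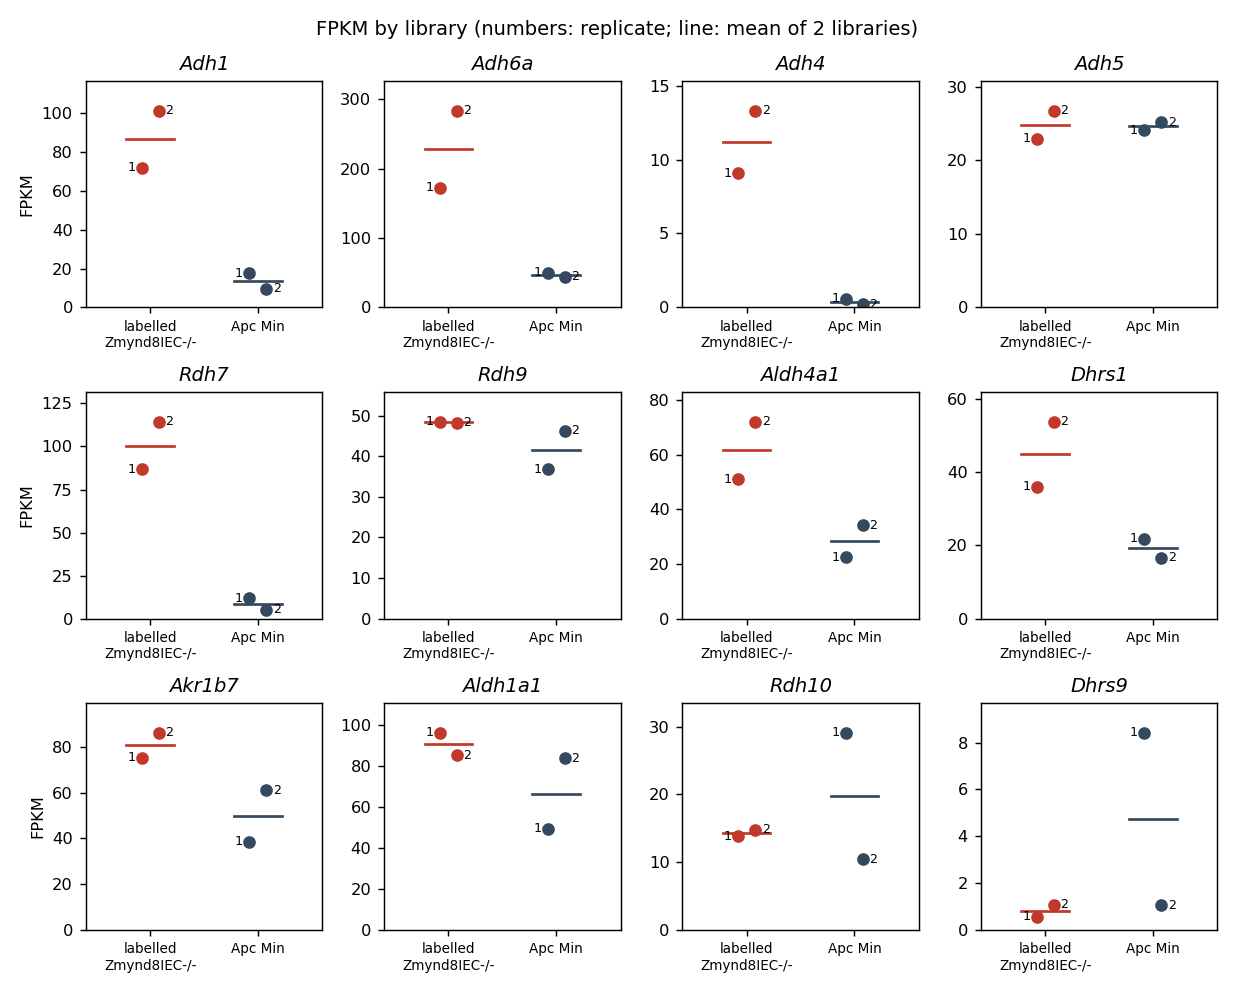
FPKM (vertical axes, linear from 0, one scale per gene) of 12 members in each of the 4 libraries, with the 2 libraries labelled Zmynd8IEC-/- at left in red and the 2 Apc Min libraries at right in dark blue; numbers are replicate numbers and lines the mean of 2 libraries. Adh1, Adh6a, Adh4 and Rdh7 are separated by wide gaps, Adh5 overlaps, and Rdh10 and Dhrs9 are high in Apc Min replicate 1 alone.

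These Adh genes lie in a row on chromosome 3 in the same orientation (mm10, plus strand), with Adh1 at 138277645 to 138290691, Adh6a at 138313286 to 138331134, Adh4 at 138415497 to 138430892 and Adh5 at 138437200 to 138455499. Only 6.31 kb separate the end of Adh4 from the start of Adh5, so a ratio of means of 28.0 stood next to one of 1.01. Beyond Adh5, Metap1, a methionine aminopeptidase gene, stood at 20.7 and 19.0 FPKM in the libraries labelled Zmynd8IEC-/-, against 24.2 and 23.3 FPKM in the Apc Min libraries. On the other side of the cluster Mttp, which loads lipid onto apolipoprotein B, stood at 587 and 721 FPKM in the libraries labelled Zmynd8IEC-/-, against 306 and 303 FPKM in the Apc Min libraries. Mttp thus lay above its Apc Min level as well (log2 fold change 1.09, adjusted p = 0.0586), while Metap1 lay slightly below it (adjusted p = 0.185).

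The promoter windows of the 4 Adh genes are shown because neighbours with unlike responses can be read side by side. Each is 300 bases of RefSeq sequence (GRCm38.p6), 5′ to 3′ on the plus strand, from 250 bases before to 50 after a start, at chr3:138277335-138277634 for Adh1, chr3:138313036-138313335 for Adh6a, chr3:138415247-138415546 for Adh4 and chr3:138436950-138437249 for Adh5. The Adh1 window belongs to a start 60 bases upstream of the deposited one, and the other windows belong to the deposited start itself. Capitals mark matches, on either strand, to any of 7 motifs: the TATA box TATAAA, the GATA motif AGATAA, the nuclear receptor half-site AGGTCA, the HNF4-type CAAAGTCCA, the CDX-type TTTATG, an HNF1-type motif and the sterol response element.
Adh1: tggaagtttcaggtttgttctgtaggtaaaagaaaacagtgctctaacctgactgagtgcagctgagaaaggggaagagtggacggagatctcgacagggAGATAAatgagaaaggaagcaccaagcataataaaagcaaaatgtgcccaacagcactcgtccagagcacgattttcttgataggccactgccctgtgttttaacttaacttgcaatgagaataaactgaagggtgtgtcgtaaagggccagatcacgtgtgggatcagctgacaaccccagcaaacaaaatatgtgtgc
Adh6a: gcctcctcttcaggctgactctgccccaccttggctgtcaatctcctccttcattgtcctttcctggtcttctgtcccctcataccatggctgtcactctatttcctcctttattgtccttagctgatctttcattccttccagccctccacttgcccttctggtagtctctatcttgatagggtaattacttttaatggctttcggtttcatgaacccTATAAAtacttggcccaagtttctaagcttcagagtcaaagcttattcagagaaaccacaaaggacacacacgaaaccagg
Adh4: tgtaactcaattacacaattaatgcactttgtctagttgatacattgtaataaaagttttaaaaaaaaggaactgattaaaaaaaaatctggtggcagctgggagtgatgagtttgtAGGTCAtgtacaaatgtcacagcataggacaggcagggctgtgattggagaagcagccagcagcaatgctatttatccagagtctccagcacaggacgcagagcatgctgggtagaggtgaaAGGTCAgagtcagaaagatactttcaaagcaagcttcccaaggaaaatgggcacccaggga
Adh5: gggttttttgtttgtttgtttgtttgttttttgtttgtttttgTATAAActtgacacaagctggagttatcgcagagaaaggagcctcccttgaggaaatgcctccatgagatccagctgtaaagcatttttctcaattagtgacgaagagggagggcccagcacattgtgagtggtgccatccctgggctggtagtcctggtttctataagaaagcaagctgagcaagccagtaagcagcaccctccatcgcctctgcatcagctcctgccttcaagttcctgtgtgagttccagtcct
The Adh1 window held 1 AGATAA, the Adh6a and Adh5 windows 1 TATAAA each, and the Adh4 window 2 AGGTCA, with no overlap between matches. Among all 32851 RefSeq windows, AGATAA was found in 11.2%, TATAAA in 13.6% and AGGTCA in 16.3%. TTTATG was found in 11.9%, CAAAGTCCA in 0.475%, the HNF1-type motif in 0.0578% and the sterol response element in 0.234%, and none of these 4 occurred in the Adh windows. No motif was shared by the 3 genes with high values. TATAAA occurred in the windows of both Adh6a and Adh5, but not at the same place. In Adh6a it lay shortly before the start, and in Adh5 near the upstream end of the window. The windows held 6, 2 and 1 CG dinucleotides for Adh1, Adh6a and Adh4 and 3 for Adh5, against a median of 7 over all windows.

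Rdh7, a short-chain enzyme that oxidises retinol and hydroxysteroids, stood at 86.7 and 114 FPKM in the libraries labelled Zmynd8IEC-/-, against 11.7 and 5.07 FPKM in the Apc Min libraries. The groups were far apart, and within the Apc Min pair replicate 1 was 2.31 times replicate 2. Its log2 fold change was 3.52 (SE 0.43, adjusted p = 0.0765), above that of Adh4 with a pseudocount of 1 but below it with a pseudocount of 0.1 (3.67, against 4.59 for Adh4). It passed the threshold without Apc Min replicate 1 (4.05, adjusted p = 0.0323) or replicate 2 (2.98, adjusted p = 0.0234). It did not pass without replicate 1 or 2 labelled Zmynd8IEC-/- (adjusted p = 0.298 and 0.538). By level Rdh7 ranked 6 of the 47 members in the libraries labelled Zmynd8IEC-/- and 33 in the Apc Min libraries. In the authors' deposited table, q-values under 0.05 were given to Rdh7, Adh6a, Adh1 and Aldh4a1 (9.64e-19, 1.28e-27, 3.66e-12 and 0.0283), all higher, while Adh4 had 0.0531. That is 4 of 47 members, or 8.51%, where 1.26% of all genes were higher at that q-value, 0.876% lower and 2.13% either. How the authors computed these q-values is not stated.

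Rdh7 has 3 listed relatives on the same stretch of chromosome 10, of which Rdh9 and Rdh16 differed little between groups and Rdh1 was higher from a low level. Rdh9, a close relative, stood at 48.5 and 48.2 FPKM in the libraries labelled Zmynd8IEC-/-, against 36.8 and 46.3 FPKM in the Apc Min libraries. The groups did not overlap, but the gap was small (log2 fold change 0.22, adjusted p = 0.331). Rdh16 stood at 4.13 and 3.99 FPKM in the libraries labelled Zmynd8IEC-/-, against 4.55 and 3.84 FPKM in the Apc Min libraries, and overlapped. Rdh1, an all-trans retinol dehydrogenase, was low throughout, at 1.17 and 0.992 FPKM in the libraries labelled Zmynd8IEC-/- (213 and 187 reads), against 0.336 and 0.402 FPKM in the Apc Min libraries (59 and 77 reads). It did not reach 1 FPKM in 2 libraries and was the 1 member not tested. Of the summed FPKM of these 4 genes Rdh7 made up 61.7% and 68.3% in the libraries labelled Zmynd8IEC-/-, against 22% and 9.12% in the Apc Min libraries, and Rdh9 34.5% and 28.8%, against 68.9% and 83.3%. Since such relatives can share reads, the split between them is uncertain.

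Rdh7 lies on the minus strand at 127884027 to 127889247, 68.2 kb from the end of Rdh16. The next listed gene beyond it, Hsd17b6, which encodes a retinol and hydroxysteroid dehydrogenase of the same enzyme group, stood at 37.0 and 56.2 FPKM in the libraries labelled Zmynd8IEC-/-, against 6.90 and 4.32 FPKM in the Apc Min libraries. Its groups were far apart, as were those of Rdh7 (log2 fold change 2.85, SE 0.30, adjusted p = 0.0587). Prim1, a DNA primase gene on its far side, stood at 6.63 and 6.04 FPKM in the libraries labelled Zmynd8IEC-/-, against 10.0 and 8.56 FPKM in the Apc Min libraries.

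**Figure D2:**
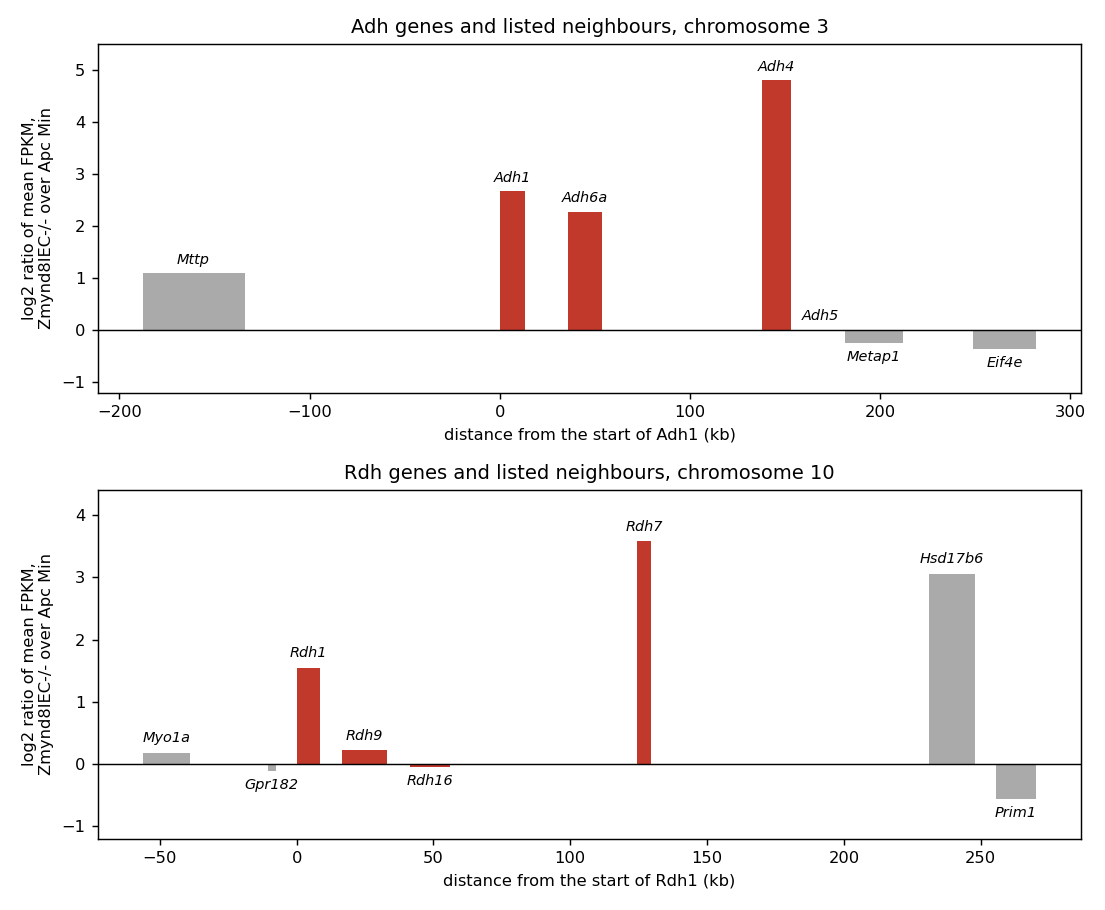
Log2 ratio of mean FPKM, libraries labelled Zmynd8IEC-/- over Apc Min libraries (vertical axis, no pseudocount), for listed genes of the Adh region of chromosome 3 (top) and the Rdh region of chromosome 10 (bottom) by distance in kb from the start of Adh1 or Rdh1 (horizontal axis); bar width is gene length, members are red and other genes grey. The bar of Adh5 is too short to see beside Adh4, and Rdh9 and Rdh16 lie near 0 between Rdh1 and Rdh7.

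Windows of Rdh7 and Rdh9 are shown because RefSeq gives Rdh7 a pair of starts, 514 bases apart. They are chr10:127889198-127889497 (minus strand) for the outer start, which is the deposited one, chr10:127888684-127888983 (minus strand) for the inner start, and chr10:127776155-127776454 (plus strand) for Rdh9, with capitals as above.
Rdh7 outer start: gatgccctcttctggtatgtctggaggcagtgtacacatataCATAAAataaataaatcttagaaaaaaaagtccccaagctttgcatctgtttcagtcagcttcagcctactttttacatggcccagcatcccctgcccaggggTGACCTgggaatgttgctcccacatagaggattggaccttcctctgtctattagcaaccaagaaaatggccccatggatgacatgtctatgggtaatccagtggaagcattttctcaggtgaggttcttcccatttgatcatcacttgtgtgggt
Rdh7 inner start: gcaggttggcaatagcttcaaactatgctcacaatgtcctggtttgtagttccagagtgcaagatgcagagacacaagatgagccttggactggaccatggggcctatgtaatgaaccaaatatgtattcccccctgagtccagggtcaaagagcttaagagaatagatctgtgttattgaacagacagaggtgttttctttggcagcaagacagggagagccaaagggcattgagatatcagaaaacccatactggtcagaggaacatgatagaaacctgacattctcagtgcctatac
Rdh9: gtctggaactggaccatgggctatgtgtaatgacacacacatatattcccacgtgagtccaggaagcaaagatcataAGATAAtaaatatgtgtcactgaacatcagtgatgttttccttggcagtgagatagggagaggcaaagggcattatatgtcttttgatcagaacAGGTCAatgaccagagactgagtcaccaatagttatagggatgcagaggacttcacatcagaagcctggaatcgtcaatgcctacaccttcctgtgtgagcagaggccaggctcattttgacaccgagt
By local alignment the inner Rdh7 window matched the Rdh9 window at 169 of 260 aligned positions (65.0%), and the Rdh9 window matched that of Rdh16 at 202 of 266 (75.9%). The best alignment of the outer Rdh7 window with Rdh9 covered 127 positions with 74 identical (58.3%). The outer window held 1 AGGTCA and 1 TTTATG, the Rdh9 window 1 AGATAA and 1 AGGTCA, and the inner window none of the 7 motifs. Gene-level values do not show which start was used.

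The remaining retinol and retinaldehyde enzymes showed no change past the threshold. Rdh10, which carries out the first oxidation step in embryos, stood at 13.8 and 14.8 FPKM in the libraries labelled Zmynd8IEC-/-, against 29.1 and 10.4 FPKM in the Apc Min libraries. Dhrs9, a retinol dehydrogenase, stood at 0.564 and 1.07 FPKM in the libraries labelled Zmynd8IEC-/-, against 8.41 and 1.05 FPKM in the Apc Min libraries. Akr1b8, an aldose reductase relative, stood at 5.02 and 4.83 FPKM in the libraries labelled Zmynd8IEC-/-, against 16.3 and 4.07 FPKM in the Apc Min libraries. In these 3 genes Apc Min replicate 1 alone was high. Without it their log2 fold changes were 0.42, -0.19 and 0.22, against -0.28, -1.29 and -0.66 with it. Without Apc Min replicate 2 they were -0.98, -2.39 and -1.55 and passed the threshold (adjusted p = 0.0335, 0.0272 and 0.0214), a call that rests on Apc Min replicate 1. The same library also stood apart in Alb, taken as a liver marker, and Muc6, taken as a stomach marker. It held them at 11.7 and 29.2 FPKM, against 0.0303 to 0.189 and 0.364 to 1.21 FPKM in the other 3 libraries. The stem cell markers Lgr5, Sox9 and Znrf3 were high there too, at 14.8, 20.1 and 3.80 FPKM. In the other 3 libraries they stood at 2.74 to 3.48, 3.95 to 5.07 and 1.04 to 1.37 FPKM. Not all stem cell markers did so, since Olfm4 was highest in Apc Min replicate 2 and Axin2 was level in both Apc Min libraries. Alb, the only listed gene of 5 liver markers, stood at 0.0521 and 0.0303 FPKM in the libraries labelled Zmynd8IEC-/-. Muc6 was likewise the only listed gene of 6 stomach markers. The part of such tissue or cells in the values of Rdh10, Dhrs9 and Akr1b8, or of Adh1, Adh4 and Rdh7, was not tested.

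Among retinaldehyde reductases, Dhrs3 stood at 9.0 and 8.59 FPKM in the libraries labelled Zmynd8IEC-/-, against 7.77 and 7.45 FPKM in the Apc Min libraries. Rdh14 stood at 16.5 and 15.6 FPKM in the libraries labelled Zmynd8IEC-/-, against 13.1 and 13.2 FPKM in the Apc Min libraries. Rdh11 stood at 14.0 and 14.9 FPKM in the libraries labelled Zmynd8IEC-/-, against 15.7 and 21.4 FPKM in the Apc Min libraries. Dhrs3 and Rdh14 lay above both Apc Min libraries and Rdh11 below both. Dhrs3 overlaps Vps13d on the opposite strand, and since the sources do not say whether counting used strand, its value is uncertain. Rdh13, a mitochondrial enzyme, stood at 4.52 and 4.42 FPKM in the libraries labelled Zmynd8IEC-/-, against 5.81 and 6.26 FPKM in the Apc Min libraries (log2 fold change -0.36, adjusted p = 0.141). Rdh5, the 11-cis retinol dehydrogenase of the eye, stood at 2.69 and 3.52 FPKM in the libraries labelled Zmynd8IEC-/-, against 2.2 and 2.15 FPKM in the Apc Min libraries, and overlaps Bloc1s1.

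The Aldh1a genes, among them those of the enzymes that make retinoic acid, varied as much within as between groups. Aldh1a1, by level the leading one, stood at 96.0 and 85 FPKM in the libraries labelled Zmynd8IEC-/-, against 49.1 and 83.7 FPKM in the Apc Min libraries. Apc Min replicate 2 was almost level with the lower library of the other group (log2 fold change 0.49, adjusted p = 0.326). Without Apc Min replicate 2 it was 0.87 with adjusted p = 0.0447, and without Apc Min replicate 1 0.11 with 0.612. Its neighbour Aldh1a7 showed the same low value in Apc Min replicate 1, at 15.4 and 13.1 FPKM in the libraries labelled Zmynd8IEC-/-, against 8.91 and 15.9 FPKM in the Apc Min libraries. These genes are close copies on chromosome 19, 49.5 kb apart, and may share reads. Aldh1a3 stood at 6.86 and 10.8 FPKM in the libraries labelled Zmynd8IEC-/-, against 8.05 and 4.38 FPKM in the Apc Min libraries. Aldh1a2, which stromal and immune cells are known to use, stood at 3.26 and 4.97 FPKM in the libraries labelled Zmynd8IEC-/-, against 4.15 and 4.27 FPKM in the Apc Min libraries. Both overlapped between groups.

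Among the other aldehyde dehydrogenases, Aldh4a1, the mitochondrial enzyme of proline breakdown, stood at 51.1 and 72.2 FPKM in the libraries labelled Zmynd8IEC-/-, against 22.5 and 34.3 FPKM in the Apc Min libraries. The groups did not overlap, yet each spread widely, and the log2 fold change was 1.10 (SE 0.28, adjusted p = 0.125). Aldh3b1, which acts on lipid-derived aldehydes, stood at 17.1 and 18.0 FPKM in the libraries labelled Zmynd8IEC-/-, against 9.16 and 15.0 FPKM in the Apc Min libraries (log2 fold change 0.54, adjusted p = 0.231). Without Apc Min replicate 2 its log2 fold change was 0.87 with adjusted p = 0.0382, and without Apc Min replicate 1 0.21 with 0.290. Aldh3a2, the fatty aldehyde dehydrogenase, stood at 26.0 and 26.5 FPKM in the libraries labelled Zmynd8IEC-/-, against 22.6 and 20.8 FPKM in the Apc Min libraries. Aldh9a1, of carnitine synthesis, stood at 156 and 163 FPKM in the libraries labelled Zmynd8IEC-/-, against 122 and 147 FPKM in the Apc Min libraries. All 4 were above both Apc Min libraries without passing the test.

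Aldh2, the mitochondrial enzyme that oxidises acetaldehyde from ethanol, did not share the direction of Adh1 and Adh4. It stood at 45.2 and 45.4 FPKM in the libraries labelled Zmynd8IEC-/-, against 52.8 and 51.7 FPKM in the Apc Min libraries (log2 fold change -0.20, adjusted p = 0.222). Median-ratio scaling brought this to -0.03. Aldh1b1, its mitochondrial relative and the most abundant Aldh gene, stood at 236 and 232 FPKM in the libraries labelled Zmynd8IEC-/-, against 228 and 303 FPKM in the Apc Min libraries, and overlapped. Aldh7a1, of lysine breakdown, stood at 2.63 and 2.73 FPKM in the libraries labelled Zmynd8IEC-/-, against 3.86 and 3.76 FPKM in the Apc Min libraries (log2 fold change -0.39, adjusted p = 0.144). It overlaps Phax on the opposite strand, as Aldh3b1 overlaps Gm42059, Aldh16a1 Pih1d1, Akr7a5 Pqlc2 and Dhrs9 Gm36393, so these values are uncertain in the same way as that of Dhrs3. Aldh5a1, which degrades succinic semialdehyde, stood at 3.93 and 3.89 FPKM in the libraries labelled Zmynd8IEC-/-, against 4.94 and 4.59 FPKM in the Apc Min libraries. The folate enzyme gene Aldh1l1, the valine pathway gene Aldh6a1 and Aldh16a1 overlapped between groups, with ratios of means of 1.13, 1.05 and 1.10.

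**Figure D3:**
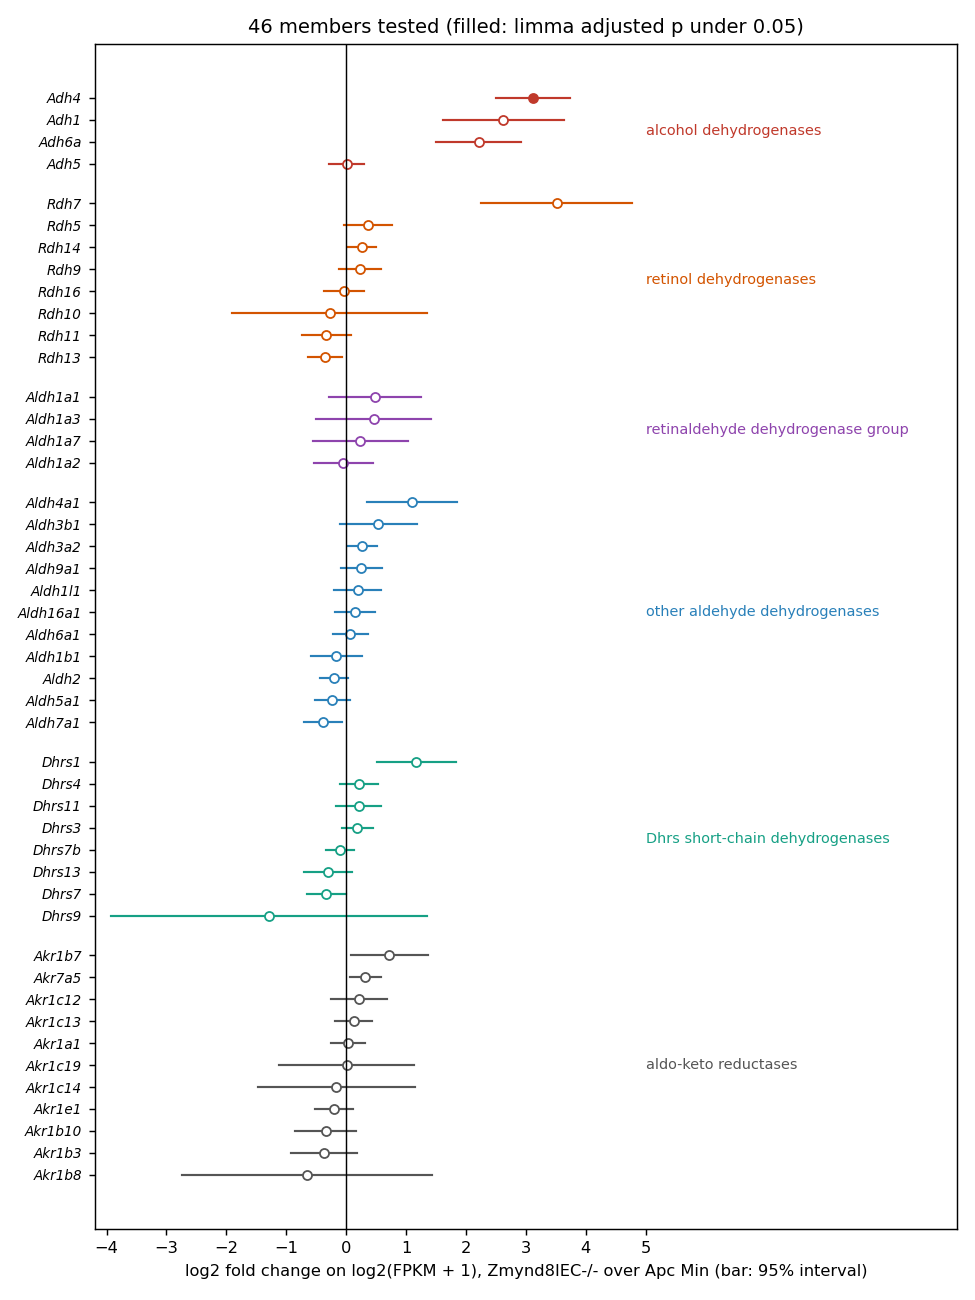
Log2 fold change on the log2(FPKM + 1) scale, libraries labelled Zmynd8IEC-/- over Apc Min libraries (horizontal axis), with 95% limma intervals for the 46 members tested (rows), grouped and coloured by family; the filled point is the member with adjusted p under 0.05. Adh4, Adh1, Adh6a and Rdh7 lie apart from the rest, and the widest interval is that of Dhrs9, at -3.92 to 1.35.

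Of the short-chain Dhrs genes, Dhrs1 had the widest gap, at 36.0 and 53.8 FPKM in the libraries labelled Zmynd8IEC-/-, against 21.8 and 16.6 FPKM in the Apc Min libraries. The groups were apart but spread within themselves (log2 fold change 1.17, SE 0.24, adjusted p = 0.102). Its neighbour Dhrs4, a peroxisomal carbonyl reductase gene 249 kb away on chromosome 14, stood at 24.9 and 28.8 FPKM in the libraries labelled Zmynd8IEC-/-, against 24.4 and 21.5 FPKM in the Apc Min libraries. Dhrs11, the most abundant Dhrs gene, stood at 131 and 129 FPKM in the libraries labelled Zmynd8IEC-/-, against 99.6 and 127 FPKM in the Apc Min libraries. Neither passed the test. Dhrs7, Dhrs7b and Dhrs13 lay below both Apc Min libraries, with ratios of means of 0.782, 0.929 and 0.688; Dhrs13 overlaps Flot2.

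The aldo-keto reductases held the most abundant member, Akr1a1, an aldehyde reductase that also serves vitamin C synthesis in mice. It stood at 354 and 366 FPKM in the libraries labelled Zmynd8IEC-/-, against 358 and 344 FPKM in the Apc Min libraries, and the 95% interval of its log2 fold change was -0.25 to 0.32. Akr1b7, which reduces lipid aldehydes, stood at 75.4 and 86.2 FPKM in the libraries labelled Zmynd8IEC-/-, against 38.5 and 60.9 FPKM in the Apc Min libraries. It lay above both (log2 fold change 0.72, SE 0.24, adjusted p = 0.167; 1.04 with 0.0382 without Apc Min replicate 2, and 0.40 with 0.179 without Apc Min replicate 1), whereas its chromosome 6 neighbours Akr1b8, Akr1b10 and Akr1b3, the last of which encodes aldose reductase, had negative values. Akr1b3 stood at 15.9 and 10.6 FPKM in the libraries labelled Zmynd8IEC-/-, against 18.5 and 15.9 FPKM in the Apc Min libraries. Akr1b10 stood at 3.30 and 2.07 FPKM in the libraries labelled Zmynd8IEC-/-, against 3.71 and 3.52 FPKM in the Apc Min libraries. In both the second library labelled Zmynd8IEC-/- was the lowest of all. Akr7a5, an aflatoxin aldehyde reductase, stood at 33.3 and 37.5 FPKM in the libraries labelled Zmynd8IEC-/-, against 28.3 and 28.1 FPKM in the Apc Min libraries (log2 fold change 0.32, adjusted p = 0.148). The hydroxysteroid-type genes Akr1c12, Akr1c13, Akr1c14 and Akr1c19 all overlapped between groups, with ratios of means between 0.899 and 1.16, and Akr1e1 had a ratio of 0.857. The Akr1c copies, like the Akr1b copies, can share reads.

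**Figure D4:**
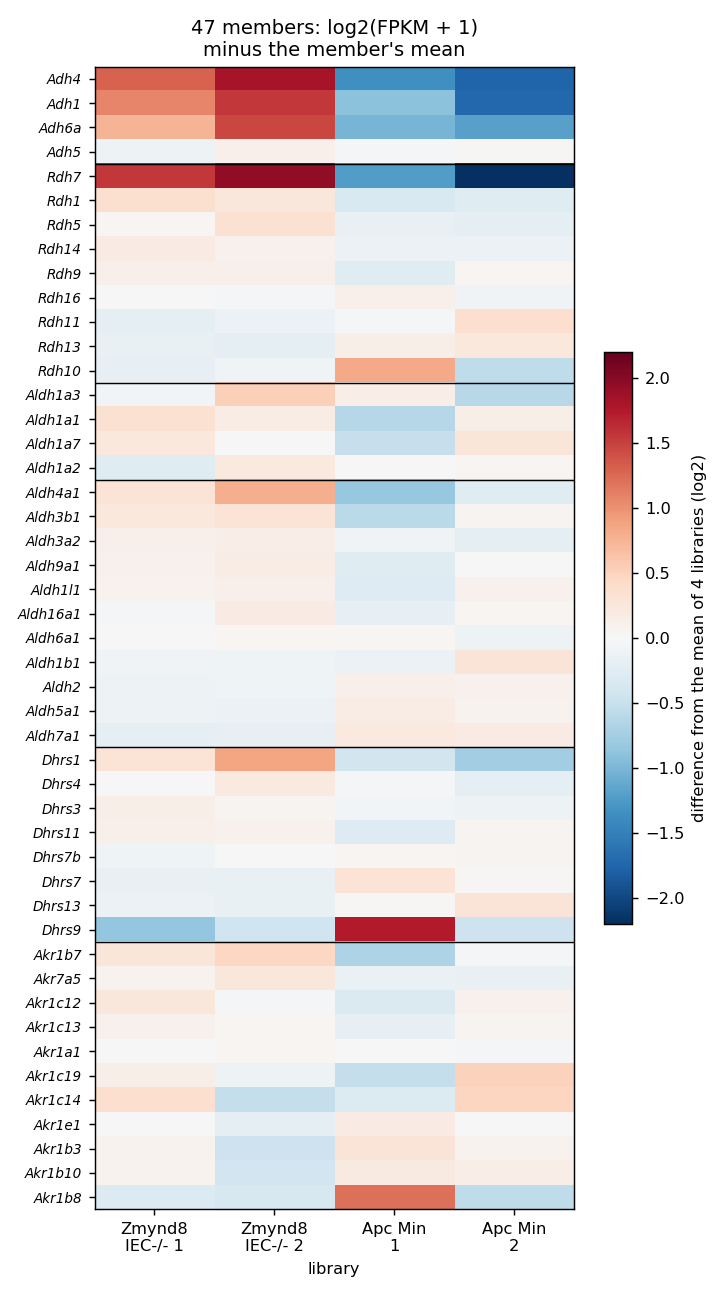
Heat map of log2(FPKM + 1) minus each member's mean over the 4 libraries (colour, red above and blue below the mean) for all 47 members (rows, grouped by family with black lines) in the 2 libraries labelled Zmynd8IEC-/- (left) and the 2 Apc Min libraries (right). Adh4, Adh1, Adh6a and Rdh7 are red at left and blue at right, while Dhrs9, Akr1b8 and Rdh10 are red in Apc Min replicate 1 only.

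Counted over all 46 members tested, 18 were higher in both libraries labelled Zmynd8IEC-/- than in both Apc Min libraries (39.1%, against 14.9% of all genes), 10 were lower in both (21.7%, against 48.5%) and 18 overlapped. After median-ratio scaling these were 25 higher (54.3%, against 27.9%) and 5 lower (10.9%, against 28.3%). The median log2 fold change of the members was 0.13, or 0.30 after median-ratio scaling, where all genes had -0.15 and -0.01. At an unadjusted p under 0.05 limma had 10 members higher and 3 lower, against 7.49% and 19.1% of all genes. By family, 3 of 4 Adh genes, 4 of 8 Rdh, 1 of 4 Aldh1a, 4 of 11 other Aldh, 4 of 8 Dhrs and 2 of 11 Akr genes were higher without overlap before that scaling, and 0, 2, 0, 3, 3 and 2 lower.

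Other genes of retinoid handling mostly overlapped between groups, at 13 of 21 tested, with 6 higher and 2 lower without overlap (14.9% and 48.5% of all genes). After median-ratio scaling 9 were higher and 1 lower (27.9% and 28.3% of all genes). Rbp2, which carries retinol in enterocytes, stood at 1069 and 1682 FPKM in the libraries labelled Zmynd8IEC-/-, against 553 and 348 FPKM in the Apc Min libraries (log2 fold change 1.61, adjusted p = 0.104). Retsat, retinol saturase, stood at 39.1 and 52.1 FPKM in the libraries labelled Zmynd8IEC-/-, against 18.6 and 15.0 FPKM in the Apc Min libraries (log2 fold change 1.38, adjusted p = 0.0607). Bco2, a carotenoid-cleaving oxygenase, stood at 34.6 and 40.4 FPKM in the libraries labelled Zmynd8IEC-/-, against 13.7 and 17.5 FPKM in the Apc Min libraries (log2 fold change 1.22, adjusted p = 0.0542). These 3, named here after their values were seen, are among the 6 and did not pass the threshold. Of 21 genes of that list tested, limma called 0 over all genes and limma-voom on recovered reads called 2 (Retsat and Bco2, both higher), where it called 0.95% of all genes higher. At an unadjusted p under 0.05 limma had 6 higher and 0 lower (7.49% and 19.1% of all genes). The retinol uptake receptor gene Stra6 and the retinol binding protein gene Rbp4 were again high in Apc Min replicate 1 alone, with Stra6 at 0.429 and 0.0744 FPKM in the libraries labelled Zmynd8IEC-/-, against 10.0 and 0.805 FPKM in the Apc Min libraries, and Rbp4 at 1.21 and 1.12 FPKM, against 7.98 and 0.917 FPKM. Of 20 other carbonyl and aldehyde clearance genes, 8 lay higher and 6 lower without overlap (14.9% and 48.5% of all genes), or 10 and 5 after median-ratio scaling (27.9% and 28.3%). Limma called 0 of these over all genes (7 higher and 3 lower at an unadjusted p under 0.05, against 7.49% and 19.1% of all genes), and limma-voom called 2, Hsd17b6 and Hsd17b13, both higher.

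Enterocyte markers, and 4 of 7 proximal markers, stood higher in the same libraries as the leading members. All 13 enterocyte markers were higher in both libraries labelled Zmynd8IEC-/-, with either scaling (14.9% of all genes, or 27.9% after median-ratio scaling). Their FPKM summed to 21961 and 25106 there, against 13896 and 15912 in the Apc Min libraries. Limma called 3 of them (Mme, Slc2a2 and Treh) higher (0.595% of all genes). The 7 markers of proximal small intestine summed to 847 and 1466 FPKM in the libraries labelled Zmynd8IEC-/-, against 285 and 145 FPKM in the Apc Min libraries. Of the 6 tested, 4 were higher without overlap (14.9% of all genes), or 5 after median-ratio scaling (27.9%). Among them Lct is also counted with the enterocyte markers. The 10 stem cell markers summed to 167 and 170 FPKM in the libraries labelled Zmynd8IEC-/-, against 264 and 257 FPKM in the Apc Min libraries. Olfm4 was the largest part of these sums, at 98.3 and 109 FPKM, against 133 and 166 FPKM. Of the 10, 9 were lower without overlap (48.5% of all genes), or 7 after median-ratio scaling (28.3%). Of the secretory cell markers, 6 of 7 Paneth, 5 of 7 goblet and all 4 listed tuft cell markers were lower without overlap (48.5% of all genes). After median-ratio scaling these were 5, 2 and 3 (28.3% of all genes). Of the 6 enteroendocrine markers, by contrast, 2 were higher without overlap, 0 were lower and 4 overlapped. Limma called 2 Paneth markers (Mmp7 and Itln1) and 1 tuft marker (Sh2d6) lower (0.131% of all genes). The part of these cell types in the members' values was not tested. The order of the libraries was also shared: Adh1, Adh6a, Adh4, Rdh7, Dhrs1, Dhrs4, Akr7a5, Aldh3a2 and Rdh5 ran from replicate 2 labelled Zmynd8IEC-/- (highest) through replicate 1 of that label and Apc Min replicate 1 to Apc Min replicate 2 (lowest). That is 9 of 47 members (19.1%, against 5.63% of all genes). Any gene in this order is also higher without overlap, so this share is not separate from that count. Mttp, Zmynd8 itself and 4 of the 13 enterocyte markers (Lct, Mme, Slc2a2 and Apoa4) ran in this order too. So did 5 of 25 listed genes of retinoid handling and 4 of 20 of carbonyl and aldehyde clearance. It was also the order of 4 of the 7 proximal markers, Fabp1, Lct, Gata4 and Gata6. Of the other proximal markers, Slc40a1 was lower in both libraries labelled Zmynd8IEC-/-, Onecut2 was high in Apc Min replicate 1 alone and Cybrd1 overlapped. The 6 distal markers summed to 3748 and 1189 FPKM in the libraries labelled Zmynd8IEC-/-, against 2611 and 9383 FPKM in the Apc Min libraries, the reverse order within each group. Fabp6 was the largest part except in replicate 2 labelled Zmynd8IEC-/-, at 2250 and 134 FPKM, against 1459 and 7606 FPKM. Of the 6, 1 (Guca2a) was higher and 1 (Fgf15) lower without overlap (14.9% and 48.5% of all genes), and 4 overlapped. After median-ratio scaling 1 was higher and 0 lower (27.9% and 28.3%). The part of gut position in the values of Adh1, Adh4, Adh6a and Rdh7 was not tested.

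By level, the ranks of Rdh7, Adh1 and Adh4 differed most between groups. Akr1a1 and Aldh1b1 ranked 1 and 2 in both groups. Adh6a ranked 3 in the libraries labelled Zmynd8IEC-/- and 9 in the Apc Min libraries, Adh1 ranked 8 and 26, and Adh4 31 and 46. Aldh2 ranked 14 in the libraries labelled Zmynd8IEC-/- and 6 in the Apc Min libraries, Dhrs1 15 and 23, Dhrs9 47 and 39, and Akr1c14 23 and 16. In the libraries labelled Zmynd8IEC-/-, Aldh1b1 at 234 ± 2.64 FPKM and Adh6a at 228 ± 78.3 FPKM (SD, n = 2) did not differ beyond their spread, nor did Rdh7 at 101 ± 19.6, Aldh1a1 at 90.5 ± 7.74 and Adh1 at 86.4 ± 20.8 FPKM.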

How the data were processed

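RNA-seq of 4 crypt libraries was used. Per the labels' protocols, an NEBNext Ultra RNA kit and paired HiSeq3000 sequencing were used. HISAT2, BWA, SICER, mm10 and hg38 appear in the submitters' processing notes with neither role nor version. Counting tool, annotation and strand use: not given in the sources used here. The authors deposited 1 value per gene and library, read here as FPKM because every value equals whole reads over a gene length and 1 total per library. The file headers name no unit. The authors' deposited log2 fold changes, p-values and q-values were copied, and 168 exact repeats were dropped. Whole reads were recovered within 0.002 reads for 13359 of 13359 genes, with library totals of 46551218 and 47990019 (labelled Zmynd8IEC-/-) and 44718091 and 48778712 (Apc Min).

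Limma 3.58.1 in R 4.3.3 was fitted to log2(FPKM + 1) with trend and robust moderation for 12948 genes at 1 FPKM or more in at least 2 libraries. P-values were adjusted over all of them by the Benjamini-Hochberg method. The scale understates changes of low genes. There were 2 residual degrees of freedom. The fit was tested on simulated data. Intervals are at 95%, and the threshold was 0.05. Groups "do not overlap" when both libraries of one exceed both of the other. Sequences are RefSeq's, and 41 of the 47 members had a promoter window. The members, lists, motifs and examples were chosen with earlier results of these data or, for motifs, the sequences known. Every member could be named. Metap1, Mttp, Prim1, Alb and Muc6 serve as neighbours or markers. Alternatives were other pseudocounts, filters, scalings, a replicate block, leaving out each library and limma-voom. The HCT116 ChIP-seq libraries were not analysed here, and 0 per-sample columns were left unused.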

Additional observations from a re-analysis of the deposited data

How the results depend on the processing

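The 33 genes whose log2 fold changes were followed left out some members and took in Zmynd8, Mttp, Hsd17b6, Hsd17b13, Rbp2, Retsat and Bco2. Of these 33 genes, 29 kept their direction under every alternative run. The exceptions were Adh5 (-0.10 to 0.11 with 1 library left out), Rdh10 (-0.98 to 0.42), Akr1b8 (-1.55 to 0.22) and Rdh16 (-0.13 to 0.07, the value of 0.066 being without Apc Min replicate 1, and 0.11 with median-ratio scaling and 0.14 with quantile normalization), each near 0 or carried by Apc Min replicate 1. Among members not followed, median-ratio scaling turned Aldh1b1, Akr1c14, Dhrs7b and Aldh1a2 from negative to positive values near 0 (0.008, 0.0007, 0.06 and 0.09). With that scaling 33 of the 46 members tested had positive values, against 28 before it. The count of members called higher was 1. It was 0 with a pseudocount of 0.1, without a filter on low values, with a filter at a mean of 5 FPKM and with the replicate block, and 2 with limma-voom on recovered reads (Adh4 and Adh6a). With 1 library left out it ran from 0 to 6, with 2 without Apc Min replicate 1 (Adh4, Rdh7) and 6 without Apc Min replicate 2 (Adh1, Adh4, Rdh7, Aldh1a1, Aldh3b1, Akr1b7). The count called lower ran from 0 to 3, the 3 (Dhrs9, Akr1b8, Rdh10) without Apc Min replicate 2. A group of 1 library is then assumed to vary like the other. The replicate block left Adh4 at adjusted p = 0.152. Libraries of the same number did not clearly deviate together (correlation of deviations 0.0452 across genes). With 2 libraries a group, this cannot tell whether libraries of the same number shared a preparation. The count of members lower without overlap was 10, against 5 with median-ratio scaling and 6 each with quantile normalization and the filter at 5 FPKM. Over all genes 77 were called higher and 17 lower, against 1 and 0 without a filter, 2 and 0 with the filter at 5 FPKM, 0 and 0 with the block, 60 and 4 with median-ratio scaling, 61 and 5 with quantile normalization, 123 and 27 with limma-voom, 0 and 0 without either library labelled Zmynd8IEC-/-, and 230 and 386 without Apc Min replicate 2. With a pseudocount of 0.1, 69 were called higher and 16 lower over all genes. The genes tested numbered 13359 without a filter, 7831 with the filter at 5 FPKM and 12948 in the other settings that kept all 4 libraries. Causes were not tested. With 2 libraries a group, low members such as Adh4 (13 reads in 1 library) and Rdh1 are the least precise.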
